A study of Mus musculus with 147 samples.

Results

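Renin cells, the endocrine cells of the juxtaglomerular arteriole, descend in the embryo from stromal progenitors of the kidney that are marked by the forkhead factor Foxd1. The 9 genes described here encode transcription factors of that stromal lineage: Foxd1, Tbx18, Tbx2, Meis1, Meis2, Hoxd10, Hoxd11, Ebf1 and Tcf21. They were chosen by name as members of this lineage, and all 9 were found among the 35438 genes of the files. The same progenitors also give rise to vascular smooth muscle, pericytes, mesangial cells and interstitial fibroblasts, and some of the factors are also known in these mature cells. Tbx18 and Foxd1 mark progenitors, Meis and Hox proteins bind DNA together with Pbx partners, Ebf1 is known in pericytes and mesangial cells, and Tcf21 is known in interstitial stroma and in podocytes.

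The cells were YFP-positive single cells sorted from the kidney cortex of adult C57BL/6 mice of both sexes. WT renin cells came from Ren1c+/+ Ren1c-YFP mice with an intact renin gene, and Renin-null cells from Ren1c-/- Ren1c-YFP mice, which lack it and had been given saline injections after birth to keep them alive. Sorting in either group was by the fluorescence of YFP, a reporter placed under the control region of Ren1c. Each cell was held in a well of the Fluidigm C1 System, its RNA was turned into cDNA along the whole transcript (SMART-Seq v4), and reads were counted without molecular identifiers. The WT renin cells numbered 51, from 1 capture, and are called the WT library here, although their labels name no library. The Renin-null cells numbered 96, in 2 libraries of 48 cells named YFP1 and YFP2. By the study's methods they came from more captures than that, and no label ties a cell to its capture. Cells of several mice were pooled and no mouse was recorded for a cell. The WT group was therefore 1 sample, and cells of the 2 Renin-null libraries could not be assigned to mice or captures. No test between genotypes was run, and effects of genotype, capture and library cannot be told apart.

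The Ren1 promoter is shown because it ties the Hox factors to the cells sorted here: Hox proteins of the posterior class and Pbx proteins are known to bind together in the proximal part of this promoter, and the same stretch belongs to the regulatory sequence that drives YFP. The 120 bases before the start of Ren1 on the plus strand, chr1:133350554-133350673 of GRCm38.p6 in RefSeq, read as follows, with the matches to the joint Hox and Pbx motif TGATNNAT in capitals.
Ren1: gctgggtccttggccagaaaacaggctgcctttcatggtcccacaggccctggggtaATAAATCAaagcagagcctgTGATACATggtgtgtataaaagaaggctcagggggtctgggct
The first match, ATAAATCA, lies on the minus strand at positions -63 to -56 from the start, and the second, TGATACAT, on the plus strand at -43 to -36. On either strand, 8.85% of the 32851 promoters in the table hold such a match in the window from 250 bases before to 50 bases after the start. No match to the Meis letters TGACAG (19.2% of promoters), the Ebf letters TCCC and GGGA with 2 bases between them (0.904%), the T-box letters AGGTGTGA (1.275%) or the forkhead letters TGTTTAC (3.65%) was found in the Ren1 window, and the only E-box CANNTG (72.3% of promoters) lay after the start. Among the 9 genes, the Hox and Pbx letters were found in the window of Hoxd11, as ATCAATCA at -73 to -66, and the Meis letters in the windows of Tbx18, after the start, and Foxd1, where they overlap an E-box. A match of letters is no evidence of binding.

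Renin itself followed the labels. Ren1 was counted in 51 of 51 cells of the WT library, from 538 to 4294010 counts with a median of 23707, and made up 9.60% of all WT counts. In the Renin-null libraries 16 of 96 cells had any count of it, with at most 17, and the groups did not overlap. Akr1b7, an aldo-keto reductase that marks renin cells whether or not they make renin, was counted in 51 of 51 cells in WT and 94 of 96 without renin. It reached 10 CPM (counts of a gene scaled to a total of 1000000) in all 51 WT cells but in 73 of 96 Renin-null cells, 31 of 48 in YFP1 and 42 of 48 in YFP2. The smooth muscle markers Acta2 and Tagln were counted in all 51 WT cells and in 95 and 96 of the 96 Renin-null cells. The loss of Ren1 was thus as the labels state.

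Depth and RNA quality differed between the groups and bear on every value below. Total counts ranged from 26401 to 17124854 among WT renin cells (median 1525972) and from 3628 to 14505243 among Renin-null cells (median 4107950, by library 2474268 in YFP1 and 4989996 in YFP2). The median share of the 13 mitochondrially encoded genes was 60.4% in WT and 12.4% in the Renin-null libraries. After these genes and Ren1 were set aside, 70.1% of WT counts and 89.1% of Renin-null counts remained for all other genes. Levels are given as CPM, the counts of a gene over all cells of a genotype scaled to a total of 1000000, and differences as log2 ratios of summed CPM with WT as the denominator. This ratio was positive for 69.2% of 18291 genes and had a median of 1.25. With TMM factors, which scale by the bulk of the genes, these were 58.3% and 0.55, and each ratio below has to be read against that background.

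Some wells stood apart. In the Renin-null libraries 4 pairs of wells were near-identical, with correlations of 0.974 to 0.987 across all genes where the next closest pair reached 0.896, and 3 of these pairs joined YFP1 to YFP2. The most similar pair held 9092 and 5196 counts of Meis1, among the highest of their libraries, so YFP1 and YFP2 were not fully independent for this gene. Counting each pair once gave a log2 ratio of 0.66 for Meis1 in place of 0.69, and it left the same 4 genes called below. A further pair of Renin-null wells carried index labels that disagreed within their records, and without it the same 4 genes were called. Over 9000 genes were counted in 1 WT well and 6 Renin-null wells. Most counts of several factors came from single wells, as the plot of levels in single cells shows, and the share of the highest well is given beside most sums below.

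**Figure D1:**
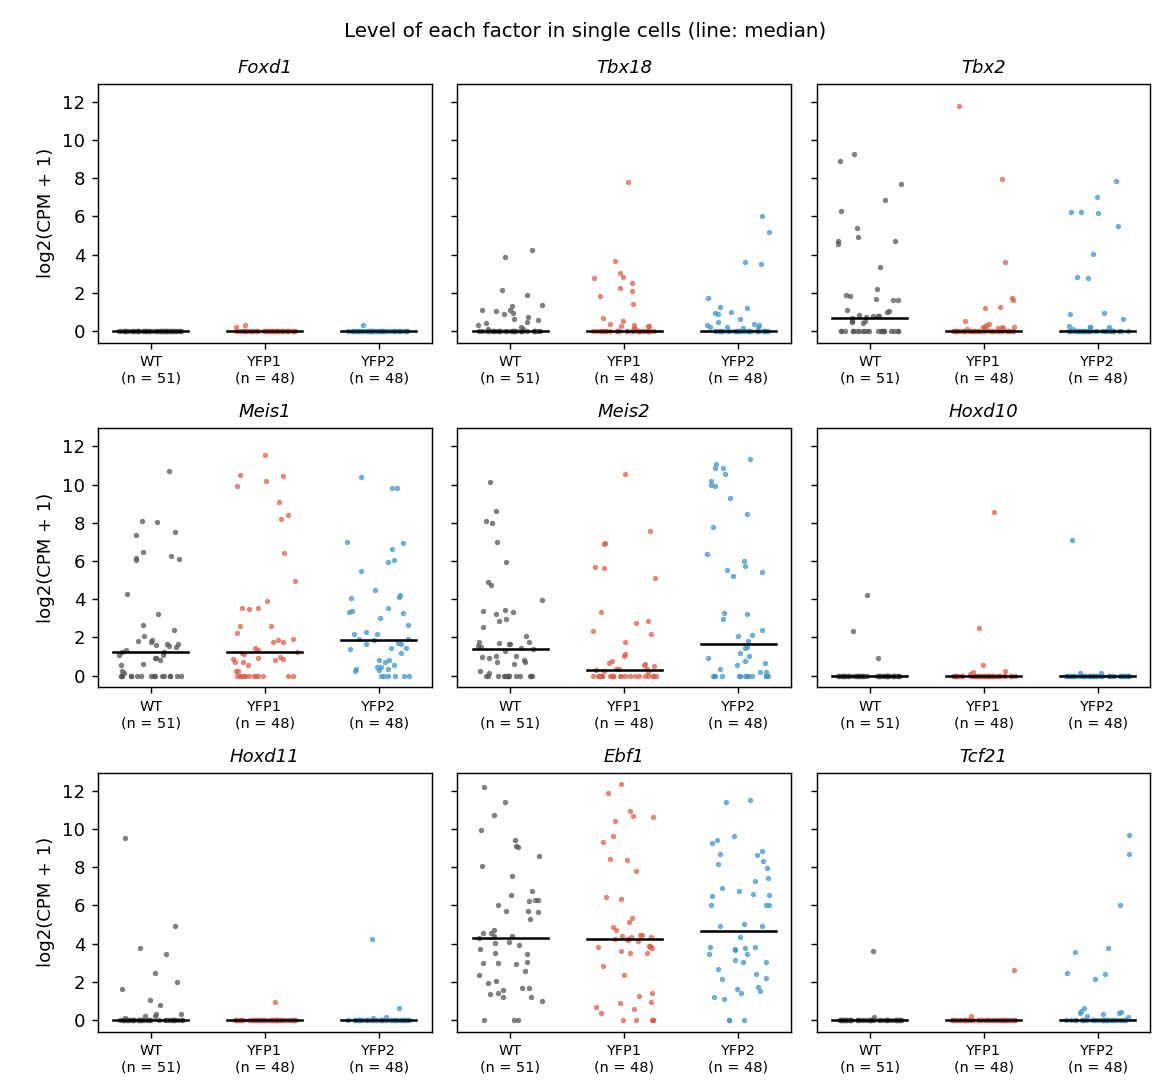
Level of each of the 9 factors in single cells, as log2(CPM + 1), in the WT library (51 cells) and the Renin-null libraries YFP1 and YFP2 (48 cells each). Each point is a cell and the black line is the median. Ebf1 is spread over most cells of every library, Foxd1 lies at or near 0 throughout, and Hoxd10, Hoxd11 and Tcf21 rest on a few high cells.

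As a group, the factors did not move one way. Of the 8 with a ratio, 5 were higher in Renin-null cells (Tbx18, Meis1, Meis2, Hoxd10 and Tcf21) and 3 lower (Tbx2, Hoxd11 and Ebf1), which is 5 of 8 against 69.2% of all genes. With TMM factors Meis1 turned to -0.01 and 4 of 8 were higher (58.3% of all genes), and when each cell had the same weight Tbx2 and Ebf1 turned to 0.53 and 0.19 and 7 of 8 were higher (76.4%). Their median log2 ratio was 0.90 (1.25 over all genes). With at least 10 CPM in a genotype, 6 factors remained, 3 of them higher (65.1% of 8747 genes), with a median of 0.12 against 0.86. At least 2-fold higher in both Renin-null libraries were Tbx18 and Hoxd10, 2 of 8, where 33.3% of 16256 genes were. At least 2-fold lower in both were Tbx2 and Hoxd11, also 2 of 8, where 15.8% of genes were. The other 4, Meis1, Meis2, Ebf1 and Tcf21, had opposite signs in YFP1 and YFP2, which 24.9% of genes had. Without the highest cell of each genotype, Tbx18, Meis1 and Tcf21 were the ones higher in both libraries (50.2% of genes) and Hoxd10 was not, while Tbx2 and Hoxd11 were again lower (9.45%). The Renin-null cell left out lay in only 1 library, so the other library kept its highest cell while WT lost its own. For Meis1, WT fell from 26180 to 11920 counts while YFP2 kept all 28437, with 10136 of them in 1 well. For Tcf21, YFP1 kept 17 counts, 16 of them in 1 well, against 1 in WT. The calls gained by Meis1 and Tcf21 are therefore no evidence of a change. The call of Tbx18 was lost with TMM factors and without mitochondrial genes and Ren1 in the total, and all 4 calls were lost when mean log2(CPM + 1) was compared. Foxd1 had too few counts for a ratio.

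**Figure D2:**
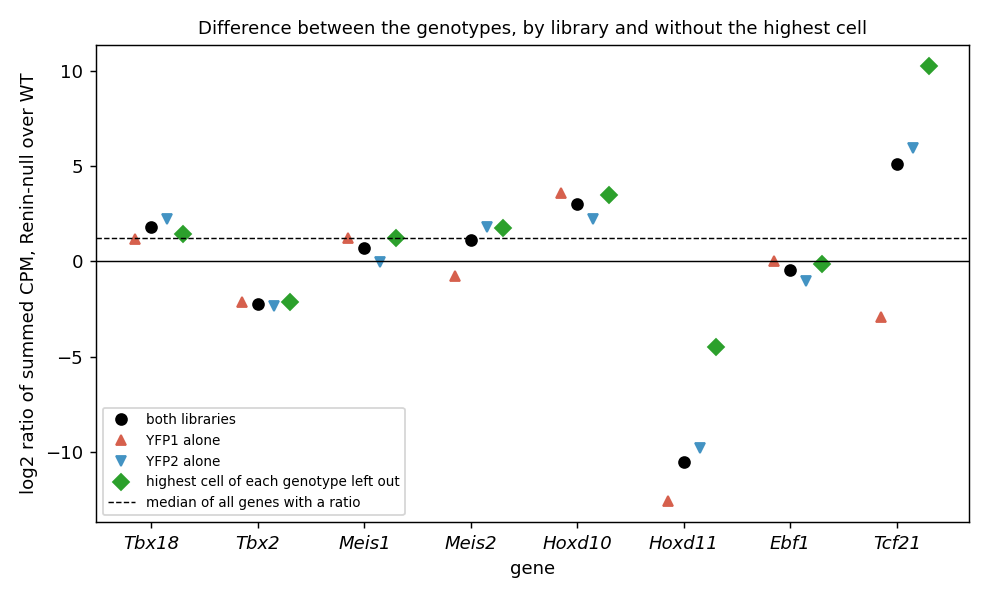
Log2 ratio of summed CPM, Renin-null over WT, for the 8 factors with a ratio, with both Renin-null libraries, with either library alone and with the highest cell of each genotype left out. The dashed line at 1.25 is the median of all genes with a ratio. Tbx2 lies near -2 in every version shown (it turned to 0.53 with equal weight for each cell, not drawn), while Tcf21 lies at 5.09 with both libraries and at -2.89 with YFP1 alone.

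Foxd1, which defines the stromal progenitors, was all but missing. It lies on chr13:98354242-98359305 of GRCm38, on the plus strand, as a single exon. No count was found in 51 WT renin cells, which allows up to 5.88% of cells to hold a count (3 of 51) and sets no limit on cells that express the gene. The exact 95% upper limit on that share was 6.98%. Meanwhile 4 counts were found in 3 of 96 Renin-null cells (3.12%, exact 95% interval 0.65% to 8.86%), with at most 2 in a cell. A difference between the genotypes was not detectable at this depth.

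Tbx18, a T-box repressor that marks the mesenchyme of the ureter and of renal vessels, was found at traces. It lies on chr9:87702800-87731260, minus strand. Of WT renin cells 20 of 51 held a count (39.2%), of Renin-null cells 38 of 96 (39.6%), and the median cell of either genotype held 0 counts. The highest cell held 19 counts in WT, 67 in YFP1 and 238 in YFP2. The summed counts were 90 and 643 counts, or 0.455 CPM (exact Poisson interval 0.366 to 0.559) and 1.61 CPM (1.49 to 1.74), a log2 ratio of 1.83 (1.51 to 2.16). It was 1.19 in YFP1 and 2.20 in YFP2, so the summed level was higher in both libraries while the share of cells with a count was nearly equal. The highest well held 21.1% of the WT counts and 37.0% of the Renin-null counts. Only 2 WT renin cells and 6 Renin-null cells reached 10 CPM. In a shallow well 1 or 2 counts pass that limit, and this was so in 3 of these cells: a WT well with 2 of 110872 counts, a YFP1 well with 2 of 8856 and a YFP2 well with 1 of 15888. On the opposite strand, the exons of the transcript D030062O11Rik cover 20.6% of those of Tbx18, and the library preparation kept no strand.

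Tbx2, a repressor of the same family with a role in growth control, had the lowest ratio of the 8 apart from Hoxd11. It lies on chr11:85832551-85841948, plus strand. A count was found in 58.8% of WT renin cells (30 of 51, 44.2% to 72.4%) and in 36.5% of Renin-null cells (35 of 96, 26.9% to 46.9%). The median was 1 count per WT cell and 0 per Renin-null cell, and the highest cells held 5319 counts in WT, 1585 in YFP1 and 1811 in YFP2. Both groups thus ran from 0 to over 1000 counts and overlapped, with the higher cells in WT, and the highest well held 34.4% of the WT counts and 27.5% of the Renin-null counts. The summed level was 78.2 CPM in WT against 16.5 CPM without renin, 4.74-fold lower, with 18.0 CPM in YFP1 and 15.3 CPM in YFP2. The log2 ratio was -2.24 (-2.29 to -2.20 from counting alone), and it was -2.14 without the highest cell of each genotype. It turned to 0.53 when each cell was given the same weight and to 1.07 with SCTransform corrected counts. In that mean 1 well of YFP1 weighed most, which held 1547 Tbx2 counts among 433726, or 3567 CPM, with 77.6% mitochondrial counts. Without it the mean over Renin-null cells fell from 46.8 to 9.71 CPM. The mean over WT cells was 32.5 CPM, and 21.0 CPM without its own highest well. At 10 CPM or more stood 10 cells of either genotype, which is 19.6% in WT and 10.4% without renin.

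Meis1 and Meis2, homeodomain proteins of the TALE class that bind beside Pbx and Hox proteins, were found in most cells of both genotypes and split between the Renin-null libraries in opposite ways. Meis1, chr11:18879817-19018985 on the minus strand, was counted in 68.6% of WT renin cells (35 of 51, 54.1% to 80.9%) and 81.2% of Renin-null cells (78 of 96, 72% to 88.5%). Its median was 2 counts in WT, 4.5 in YFP1 and 5 in YFP2, and the highest cells held 14260, 27076 and 10136. The sum was 132 CPM in WT, 313 CPM in YFP1 and 131 CPM in YFP2, so that 1 Renin-null library lay 2.37-fold above WT and the other at its level. With both libraries the log2 ratio was 0.69, less than the 1.25 of the median gene, and -0.01 with TMM factors. The highest well held 54.5% of the WT counts and 47.7% of those of YFP1, and the groups overlapped from 0 counts to the highest WT cell. Limits of 100000 counts and 1000 genes from below and of 25% mitochondrial counts from above left 15 WT and 57 Renin-null cells. There the median level of Meis1 was 67.4 CPM in WT and 2.12 CPM without renin, and 10 of 15 and 21 of 57 cells reached 10 CPM.

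Meis2, chr2:115863064-116065839 on the minus strand, was counted in 72.5% of WT renin cells (37 of 51) and 63.5% of Renin-null cells (61 of 96). The median was 3 counts in WT, 1 in YFP1 and 10.5 in YFP2, and the highest cells held 12843, 9845 and 20039. Here the sum was 129 CPM in WT, 76.5 CPM in YFP1 and 443 CPM in YFP2. YFP1 was 1.68-fold below WT and YFP2 3.44-fold above it, and the log2 ratio of 1.10 over both libraries came from YFP2. In WT 50.4% of the counts lay in 1 well, in YFP1 70.9% and in YFP2 20.8%, so the YFP2 level was spread over more cells. In the 15 WT and 57 Renin-null cells left by the limits given for Meis1, the medians of Meis2 were 14.3 and 1.24 CPM, and 8 of 15 and 19 of 57 cells reached 10 CPM. Cells at 100 CPM or more numbered 5 in WT, 4 in YFP1 and 11 in YFP2. The 2 Meis genes share 2 stretches of 31 bases in their transcripts, and exons of Meis1 overlap those of Gm37818 on the same strand over 9.77% of their length and those of the antisense gene Gm16140 over 8.51%.

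Hoxd10 and Hoxd11, neighbours in the posterior part of the HoxD cluster, each rested on single wells. Hoxd10 lies on chr2:74691924-74695105 and Hoxd11 on chr2:74679557-74687016, both on the plus strand. Hoxd10 was counted in 3 WT cells, with 153, 35 and 10 counts, and in 9 Renin-null cells. Of its 2152 counts in YFP1, 99.7% were in 1 well, and of its 1024 in YFP2, 99.8% were in 1 well. Its summed level was 1.00 CPM in WT against 7.96 CPM without renin, and the log2 ratio was 2.99 (2.79 to 3.21), which thus compared 3 wells with 2. Without those 2 wells, YFP1 held 7 counts and YFP2 held 2. The YFP1 well held 7822 CPM of Akr1b7, 2304 CPM of summed podocyte markers and 377 CPM of proximal tubule markers. The YFP2 well held 6235 CPM of Akr1b7, 2323 CPM of fibroblast markers and 1295 CPM of endothelial markers. The part of RNA from other cell types in the Hoxd10 result was not tested.

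Hoxd11 went the other way. The WT library held 6396 counts and the Renin-null libraries 9, or 32.3 and 0.0226 CPM, a log2 ratio of -10.48 (-11.61 to -9.56). A single WT well held 6353 of the 6396 counts (99.3%), and that same well also held the most Hoxd10 and the most Tbx2 of all WT wells. In the rest of the WT library, 13 wells had 1 to 10 counts. A count was found in 10 of the 14 wells with an index in common with that well, and in 3 of the 36 with none in common. Whether reads were assigned to the wrong well was not tested. With the top cell of either genotype left out the log2 ratio was -4.47, from 43 and 4 counts. Both genes share exon sequence with the readthrough transcript Gm28309, over 5.73% of Hoxd10 and 10.8% of Hoxd11.

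Ebf1, an early B cell factor that is also kept in pericytes and mesangial cells, was the most widely found of the 9. It lies on chr11:44617317-45008091, plus strand. A count was found in 94.1% of WT renin cells (48 of 51, 83.8% to 98.8%) and 91.7% of Renin-null cells (88 of 96, 84.2% to 96.3%), and it reached 10 CPM in 32 and 66 of them, 62.7% and 68.8%. The median cell held 15 counts in WT, 18.5 in YFP1 and 42.5 in YFP2, and the highest cells held 53888, 40837 and 24158. Summed over cells, Ebf1 stood at 696 CPM in WT, 704.2 CPM in YFP1 and 342 CPM in YFP2, a log2 ratio of 0.02 in one library and -1.03 in the other. The ratio of -0.46 with both libraries became -0.12 without the highest cell of each genotype and 0.19 when each cell had the same weight. It was -1.16 with TMM factors, -0.80 without mitochondrial genes and Ren1 in the total, and 0.58 with SCTransform corrected counts. The highest well held 39.1% of the counts in WT, 32.0% in YFP1 and 32.5% in YFP2. Over all cells the medians were 18.7 CPM in WT and 18.1 CPM without renin, and the groups overlapped over nearly their whole range. In the 15 and 57 cells left by the limits given for Meis1, the medians were 77.4 and 19.9 CPM, and 13 of 15 and 37 of 57 cells reached 10 CPM. Of the B cell markers, Cd79a and Cd79b had no count in the WT library, and the list summed to 0.622 CPM there and to 9.12 CPM without renin, nearly all of it Ms4a1.

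Tcf21, a basic helix-loop-helix factor of stroma and podocytes, was found mostly in YFP2. It lies on chr10:22817281-22820174, minus strand. It was counted in 2 of 51 WT cells, with 136 counts and 1 count, in 2 of 48 YFP1 cells, with 16 counts and 1 count, and in 16 of 48 YFP2 cells, with up to 6857 counts. The summed level was 0.692 CPM in WT, 0.0937 CPM in YFP1 and 43.0 CPM in YFP2. A log2 ratio of 5.09 over both libraries was therefore -2.89 in YFP1 and 5.96 in YFP2. A pair of YFP2 wells, with 6857 and 2317 counts, held most of it. Without the highest cell of each genotype, 1 count was left in WT against 2515 in the Renin-null libraries.

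Podocyte markers moved with Tcf21. Of the 5 Renin-null cells with at least 10 CPM of Tcf21, 4 had at least 100 CPM of the 6 podocyte markers together, against 25 of the other 91 (27.5%). The medians of the summed markers were 2456 CPM in those 5 cells and 20.3 CPM in the others. Endothelial markers reached 100 CPM in 3 of the 5 and in 7 of the 91, with medians of 262 and 3.55 CPM. Proximal tubule markers did so in 3 of the 5 and in 37 of the 91, with medians of 114 and 12.9 CPM. In 2 of the 5 cells, the 10 CPM of Tcf21 rested on 1 and 2 counts. The well with the most Tcf21 held 10567 counts of Nphs1, which encodes nephrin of the slit diaphragm, together with 41073 counts of Acta2. The well with the highest podocyte sum, 14794 CPM, held 113 counts of Tcf21 and 119 of Acta2. Over the whole list, 2 of 6 markers were at least 2-fold higher in both Renin-null libraries, the sum was 98.8 CPM in WT, 166 CPM in YFP1 and 1033 CPM in YFP2 (351 CPM without its highest well), its most abundant gene was Synpo in either genotype, and Podxl was among the markers with no count in WT. The part of RNA from podocytes, endothelium or proximal tubule in the Tcf21 result was not tested.

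**Figure D3:**
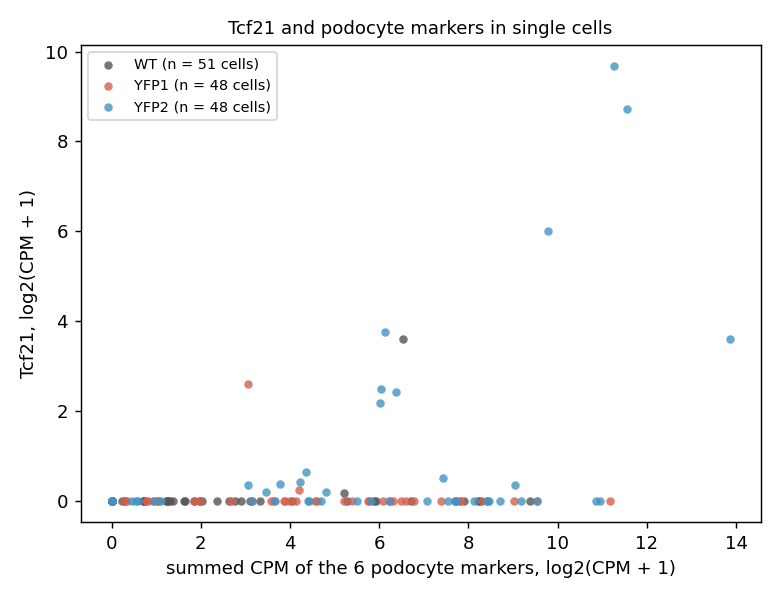
Tcf21 against the summed level of the 6 podocyte markers (Nphs1, Podxl, Synpo and Wt1 among them) in single cells, both as log2(CPM + 1), for WT (51 cells), YFP1 and YFP2 (48 cells each). All 5 Renin-null cells with at least 10 CPM of Tcf21 belong to YFP2, and 4 of them hold at least 100 CPM of the markers, as do 25 Renin-null and 5 WT cells below that limit.

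Shares of cells were compared next. A larger share of Renin-null than of WT renin cells had a count for 5 of 9 factors (Foxd1, Tbx18, Meis1, Hoxd10 and Tcf21), where this was so for 74.6% of 22953 genes. In the 15 and 57 cells left by the limits, Foxd1, Meis2 and Tcf21 were the ones, 3 of 9 against 61.1% of 21295 genes, and the share was larger in WT for Tbx18 (9 of 15 and 29 of 57), Meis1 (15 of 15 and 53 of 57) and Hoxd10 (3 of 15 and 7 of 57). Renin-null cells were sequenced more deeply, so each cell was also thinned to 200000 counts, which left out 5 cells of the WT library and 17 of the Renin-null libraries. The expected share with Tbx2 was then 26.5% in WT and 14.5% without renin, against 58.7% and 41.8% of the same cells before thinning. Meis1 went from 71.7% and 92.4% to 36.1% and 49.1%, and Meis2 from 78.3% and 73.4% to 41.1% and 40.8%. Ebf1 kept the largest share, 74.3% in WT and 81.9% without renin, down from 93.5% and 100%. For Hoxd11 the shares fell from 28.3% and 5.06% to 10.7% and 0.421%, and for Tcf21 from 4.35% and 20.3% to 2.00% and 7.67%. Tbx18 went from 41.3% and 45.6% to 8.75% and 13.6%. With mitochondrial genes and Ren1 set aside before each cell was thinned, here to 50000 counts (48 WT and 81 Renin-null cells), the order of the genotypes turned for Ebf1 (70.9% in WT, 67.2% without renin) and Tbx18 (8.71% and 7.12%). Meis1 (32.9% and 38.1%), Meis2 (37.6% and 32.4%), Tbx2 (24.0% and 11.6%), Hoxd11 (10.9% and 0.222%) and Tcf21 (1.19% and 5.81%) kept theirs. All cells were sorted for YFP, and no group of cells known to lack these genes was measured. How much a single count means therefore cannot be read from the share alone. Some Renin-null wells were rich in markers of other cells. The one with the most proximal tubule markers held 13332 CPM of them and 25.7 CPM of smooth muscle markers. It had 10 counts of Meis1, 9 of Ebf1, 2 each of Tbx18, Meis2 and Hoxd10, and none of the other factors. Which cell type that well held was not tested.

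**Figure D4:**
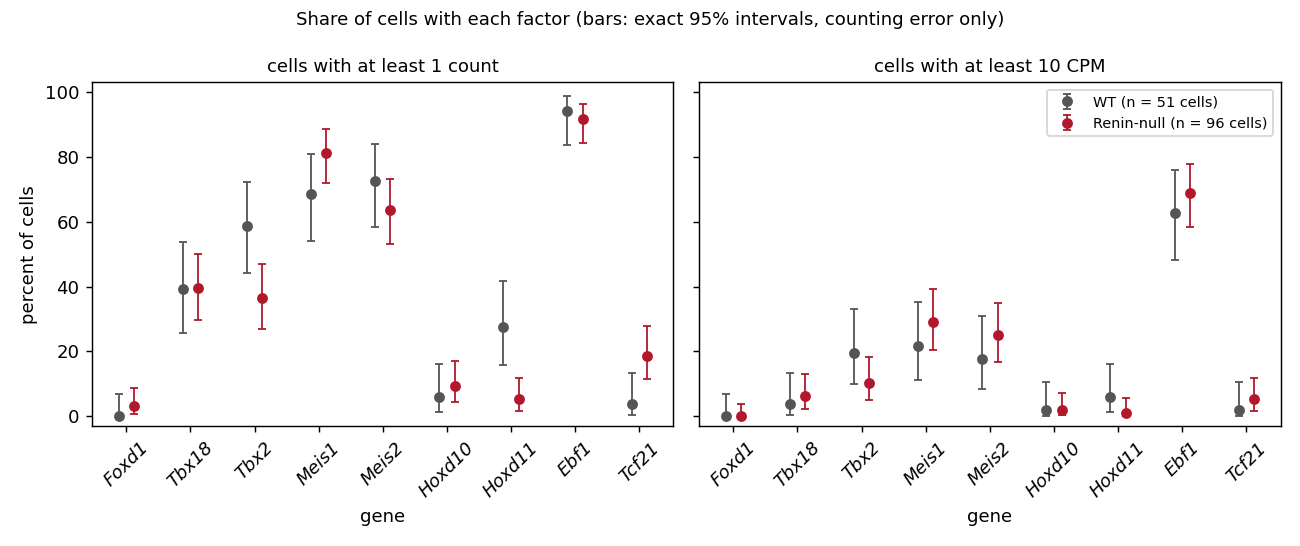
Percent of cells with each factor in each genotype (51 WT and 96 Renin-null cells), at a limit of 1 count (left) and of 10 CPM (right). Bars are exact 95% intervals and cover counting error only. At 10 CPM, Ebf1 is at 62.7% and 68.8% of cells and no other factor passes 29.2% in either genotype.

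Compared per kilobase of exon, the factors stood in the following order in WT renin cells. Ebf1 led with 71.3 CPM per kilobase, followed by Tbx2 with 21.6, Meis1 with 12.6, Meis2 with 10.7, Hoxd11 with 7.67, Hoxd10 with 0.551, Tcf21 with 0.295 and Tbx18 with 0.0964. The WT places of Hoxd11, Hoxd10 and Tcf21 rest on single wells, with 99.3%, 77.3% and 99.3% of their WT counts, and cannot be set. Tcf21 and Tbx18 changed places in WT when every cell had the same weight. In Renin-null cells Ebf1 also led, with 51.9 CPM per kilobase, and Meis2 (22.9) and Meis1 (20.3) came before Tcf21 (10.0), Tbx2 (4.56), Hoxd10 (4.39), Tbx18 (0.342), Hoxd11 and Foxd1. Meis1 and Meis2 were neighbours in either genotype and cannot be ranked, since YFP1 placed Meis1 (29.7) above Meis2 (6.35) and YFP2 placed Meis2 (36.8) above Ebf1 (35.0) and Meis1 (12.4). Nor can Tbx2 and Hoxd10 in Renin-null cells, which changed places between YFP1 and YFP2. Tcf21 stood at 0.0399 in YFP1, below Tbx18, and at 18.3 in YFP2, above Meis1, so its place in Renin-null cells cannot be set either. Hoxd11 and Foxd1, at traces, also changed places between YFP1 and YFP2. With the median transcript length in place of the exon length, Meis2 moved up to the second place in WT and to the first in Renin-null cells. Many of its transcripts are short, with a median of 0.837 kilobases. With every cell given the same weight, 7 of the 9 genes kept their place in either genotype.

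**Figure D5:**
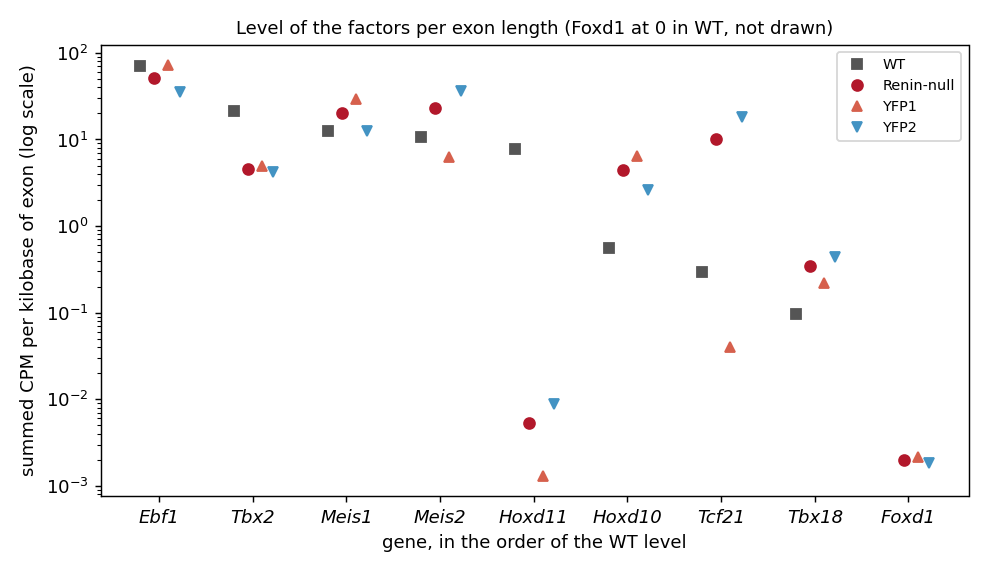
Level of each factor as summed CPM per kilobase of exon, on a log axis, in WT renin cells, in all Renin-null cells and in YFP1 and YFP2. Genes are in the order of the WT level. Ebf1 is highest in WT and with both Renin-null libraries together, and the Renin-null libraries lie far apart for Meis2, Tcf21 and Hoxd11.

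Single cells mostly carried several of the factors. The median cell of either genotype had a count for 4 of the 9, and at most 7 were found together in a WT renin cell and 8 in a Renin-null cell. At 10 CPM the median was 1, and 17 WT renin cells (33.3%) and 17 Renin-null cells (17.7%) had none. Ebf1, which reached that limit in 62.7% of all WT renin cells and 68.8% of all Renin-null cells, was found in 10 of 10 WT renin cells with Tbx2, 11 of 11 with Meis1 and 8 of 9 with Meis2, and in 9 of 10, 21 of 28 and 19 of 24 Renin-null cells. Meis1 and Meis2 were found together in 6 WT renin cells, 54.5% of those with Meis1 and 66.7% of those with Meis2, and in 6 Renin-null cells, 21.4% and 25.0%. Many of the cells at 10 CPM met the limits given for Meis1. In WT it was so for 7 of 10 with Tbx2, 10 of 11 with Meis1 and 8 of 9 with Meis2. In Renin-null cells it was so for 6 of 10, 21 of 28 and 19 of 24. Among all cells that met the limits, Ebf1 reached 10 CPM in 13 of 15 in WT and 37 of 57 without renin. The part of well quality in these pairs was not tested. Among the wells with the most counts, the same YFP1 wells led for Meis1 and Ebf1, with 27076 and 34111 counts in one and 11565 and 40837 in another.

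Across the 57 Renin-null cells left by those limits, the levels of the factors were only loosely ordered together. The highest Spearman's rho was 0.40, between Tbx18 and Tcf21, and that of Meis1 with Meis2 was -0.04. Each of the 6 factors measured in this way also followed the number of genes per cell, with rho from 0.24 for Meis1 to 0.46 for Tcf21, and these cells share their libraries and include near-identical wells. Among 10966 genes, those most like Meis1 were Kcnab1 (0.562), Jam3 (0.561) and Epn2 (0.539), and those most like Meis2 were Prelp (0.612), Nkap (0.577) and Lats1 (0.559). For Tcf21 they were Pak1 (0.704), Pcid2 (0.703) and Podxl (0.679), the last a sialoprotein of the podocyte surface. Tbx2 was most like Prdm9 (0.632), Pole (0.578) and Gnao1 (0.521), Tbx18 most like Gm5934 (0.616), Zfp874b (0.615) and Ifnlr1 (0.599), and Ebf1 most like 4930516K23Rik (0.600), Gxylt2 (0.560) and 6030458C11Rik (0.554). These values are descriptions over cells, which are not replicates.

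The wider families are given by how many genes were at least 2-fold higher or lower in both Renin-null libraries, where 33.3% and 15.8% of all genes were. Of the 13 TALE genes, 11 had a ratio in both libraries, of which 3 were higher, 1 lower and 7 neither, with a median log2 ratio of 0.69. Meis3 and Pbx3 were among the higher, Meis3 with 17.4 CPM without renin and 7 counts in WT, and Pbx3 with 15.4 CPM against 1.54 CPM. The highest well held 81.6% of the Renin-null counts of Meis3 and 99.7% of the WT counts of Pbx3. Tgif2, a repressor of the class, had 5308 counts in 7 WT renin cells, 63.5% of them in 1 well, and 1 count in the Renin-null libraries. Tgif1 went the other way and was also among the higher. It had 22 counts in 1 WT cell and 3464 counts in 18 Renin-null cells, 47.0% of the latter in 1 well.

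Among 39 Hox genes, 27 had a ratio in both libraries, 5 of them higher, 7 lower and 15 neither. The most abundant in WT renin cells was Hoxd8, with 148 CPM over 28 of 51 cells, and it was lower in both Renin-null libraries, at 38.0 CPM over 25 of 96 cells. Both Renin-null libraries were lower for Hoxa7 too, at 59.7 CPM in WT and 11.2 CPM without renin, but a single well held 91.6% of the WT counts. In Renin-null cells the most abundant was Hoxa9, at 62.5 CPM against 0.424 CPM in WT, which was 2-fold higher in YFP2 alone. Hoxc10, at 26.2 and 21.4 CPM, fell in neither class.

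The T-box list held 16 genes, of which 9 had a ratio in both libraries. Tbx3, the close relative of Tbx2, was the most abundant in either genotype, with 105 CPM in WT, 26.6 CPM in YFP1 and 66.8 CPM in YFP2, lower in both but 2-fold lower in YFP1 alone. Tbx18, Tbx5 and Tbx20 were at least 2-fold higher in both libraries, all of them below 3 CPM. Of the Ebf list, Ebf1 was the most abundant in either genotype, and Ebf3 and Zfp521 were lower in both libraries at under 3 CPM in WT, with 90.6% and 99.0% of the WT counts in 1 well. Among 10 forkhead genes, Foxc1 (18.0 and 36.0 CPM) and Foxp1 (43.9 and 97.0 CPM) did not reach 2-fold in both libraries, while Foxc2, at 0.288 and 14.6 CPM, did so, with 70.2% of its Renin-null counts in 1 well.

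Of the 12 basic helix-loop-helix genes, 10 had a ratio in both libraries, of which 1 was higher, 1 lower and 8 neither. The most abundant were 3 of the Id proteins, which hold such factors off the DNA. Id3 stood at 1786 CPM in WT against 1502 CPM without renin, Id2 at 815 and 907 CPM and Id1 at 232 and 294 CPM. Id4 was lower in both libraries, at 22.4 and 2.32 CPM. Of 20 other stromal and mural factors with a ratio in both libraries, 1 was higher, 3 lower and 16 neither, with a median log2 ratio of 0.14. Zfhx3 (1407 and 1437 CPM), Mef2c (1246 and 1108 CPM), Nr2f2 (506.9 and 467 CPM) and Gata3 (416 and 552 CPM) were neither, Zeb1 (96.1 and 21.2 CPM), Rbpj (98.4 and 9.69 CPM) and Srf (26.4 and 6.27 CPM) were lower, and Snai2 (0.389 and 19.8 CPM) was higher. A single well held 92.5% of the WT counts of Rbpj, 97.0% of those of Srf, 42.4% of those of Zeb1 and 75.1% of the Renin-null counts of Snai2.

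Genes of the nephron lineage and the interstitium were mostly higher. Of the 12 nephron factors, 9 had a ratio in both libraries and 8 of those were higher, among them Pax8 with 0.243 CPM in WT against 21.8 CPM without renin. Wt1 stood at 49.5 CPM without renin, 91% of it in 1 well, and was the one that was neither. Of the 14 genes of stromal progenitors and interstitium, 11 had a ratio in both libraries, with 8 higher, 2 lower and 1 neither. The fibrillar collagen genes Col1a1 (6.97 and 232 CPM) and Col3a1 (2.17 and 534 CPM) were higher, and Aldh1a2, a retinal dehydrogenase of renal stroma, had no count in WT and 84.4 CPM over 41 of 96 cells without renin. Pdgfrb, a receptor of mural cells, was lower, at 503.5 and 83.4 CPM. Much of its WT level lay in the 2 WT wells with the most Ebf1, which held 43263 and 28963 counts of it.

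Markers of other kidney cells were counted beside the factors. The proximal tubule list summed to 47.9 CPM in WT against 718 CPM without renin, 1010 CPM in YFP1 and 474 CPM in YFP2, with 3 of 5 genes higher in both libraries and Slc5a2 at 0 in WT. The fibroblast list summed to 9.21 CPM in WT, 241 CPM in YFP1 and 1279 CPM in YFP2, with 4 of 6 genes higher, the collagen genes Col1a1 and Col3a1 the most abundant and Dpt at 0 in both genotypes. Both sums were thus higher in either Renin-null library than in WT. A single well held 75.4% of the proximal tubule counts of YFP1, and without it YFP1 stood at 264 CPM. The median cell held 7.56 CPM of that list in YFP1 and 80.4 CPM in YFP2. The endothelial list summed to 32.3 CPM in WT, 26.0 CPM in YFP1 and 366 CPM in YFP2 (93 CPM without its highest well), led by Emcn, with 2 of 5 genes higher and Cdh5 at 0 in WT. The loop and distal tubule list summed to 0.126 CPM in WT, 183 CPM in YFP1 and 37.9 CPM in YFP2, led by Slc12a1, with 3 of 4 genes higher and Pvalb at 0 in both genotypes. Of the YFP1 counts of that list 97.7% were in 1 well, and without it YFP1 stood at 4.50 CPM. The collecting duct list summed to 10.1 CPM in WT, 2.96 CPM in YFP1 and 81.4 CPM in YFP2 (30.8 CPM without its highest well), led by Hsd11b2 in WT and by Aqp2 without renin, with none of its 4 genes higher in both. Macrophage markers were near 0, at 0.985 CPM in WT, 3.64 CPM in YFP1 and 4.2 CPM in YFP2, mostly Ptprc, with 3 of 5 genes higher and Adgre1 at 0 in both genotypes. The mesangial list, led by Gata3, summed to 611 CPM in WT, 900 CPM in YFP1 and 1302 CPM in YFP2, with 2 of 4 genes higher. The smooth muscle list, led by Acta2 in WT and Tagln without renin, summed to 10455, 11376 and 11688 CPM, with none of its 4 genes higher or lower in both. The pericyte list, most of it Rgs5, summed to 12126, 13786 and 15235 CPM, with 1 of 6 genes higher, 1 lower and Kcnj8 at 0 in WT. In the median cell these lists lay further apart. The smooth muscle list stood there at 345 CPM in WT and 5525 CPM without renin (36 of 51 and 85 of 96 cells with at least 100 CPM), the pericyte list at 563 and 6170 CPM and the mesangial list at 9.35 and 271 CPM. These medians cover all wells, with a median mitochondrial share of 60.4% in WT and 12.4% without renin. Within WT the smooth muscle median was 16786 CPM in the 11 cells with at least 10 CPM of Meis1. It was 204 CPM in the other 40. Of those 11 cells, 10 met the limits given for Meis1. The part of RNA quality in these medians was not tested. Among Renin-null cells with at least 10 CPM of Meis1, 27 of 28 had at least 100 CPM of the smooth muscle markers and 20 of 28 of the fibroblast markers, against 58 and 27 of the other 68. For Meis2 these were 21 and 16 of 24 cells, against 64 and 31 of 72, and for Tbx2 9 and 6 of 10 cells, against 76 and 41 of 86. Podocyte markers reached 100 CPM in 12 of the 24 cells with Meis2 and in 17 of the other 72, with medians of 108 and 15.8 CPM. Endothelial markers did so in 5 of the 24 and 5 of the 72. In WT renin cells, none of the 51 reached 100 CPM of the fibroblast markers. The part of these cell types in the levels of the factors was not tested.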

How the data were processed

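Sorted YFP-positive single cells had been captured on the Fluidigm C1 System and prepared with SMART-Seq v4 and Nextera XT. Per the labels and the study's methods, the authors checked reads with FastQC 0.11.5, trimmed them with Trimmomatic 0.39, quantified them with Salmon 0.11.2 on GRCm38.p6 (mm10) and summed transcripts to genes with tximport (lengthScaledTPM), and deposited expected counts per gene and cell, which carry a correction for transcript length. Their own comparison used SCTransform.

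Here the expected counts were rounded to whole numbers and summed per genotype. Cells were grouped by their labels. For ratios a genotype without counts was taken as having 3 counts. Ratios were left out where neither genotype exceeded 3 counts, and where that replacement would have turned the direction (Foxd1). A gene counted as higher or lower when its ratio was at least 2-fold in both YFP1 and YFP2. Intervals at 95% are exact (Poisson for sums, conditional for ratios, Clopper-Pearson for shares) and cover counting error only, since PCR copies are not independent molecules. The factors and lists were chosen with earlier results of these data known. Genes named are the 9 factors, Ren1 and Akr1b7, members of the lists with at least 10 CPM in a genotype and the highest level, and the 3 genes most correlated with each factor found in at least 20% of the Renin-null cells that passed the limits; further list genes (such as Tgif2, Pbx3, Id4, Snai2 and, under 10 CPM, Tbx5, Tbx20, Ebf3 and Zfp521) were named after their values were seen. Coordinates come from GENCODE M21 (GRCm38) and promoters from RefSeq (GRCm38.p6). Overlapping transcripts of GENCODE were not analysed here, and some genes of the lists are not reported here by name. No doublet caller was run, wells having been inspected under the microscope. The alternatives were other scalings, weights, cell and gene limits and detection limits, with wells under 200000 counts or with discordant index labels left out, and marker sums without their highest well, added after seeing the data. The ratio was tested on simulated data, but no outcome is given here and no statement above rests on it. TMM factors came from edgeR 4.0.16 and corrected counts from sctransform 0.4.2 through Seurat 5.3.0 (R 4.3.3), and the other steps ran in Python 3.11.15 (scipy 1.17.1, numpy 2.4.6, pandas 2.3.3).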

Additional observations from a re-analysis of the deposited data

How the results depend on the processing

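No paired analysis was possible because cells carry no replicate number of a mouse and no test was run. The median log2 ratio of the 8 factors (0.90) was 0.19 with TMM factors, 0.55 without mitochondrial genes and Ren1 in the total, 1.57 as the mean over cells of CPM, 0.17 as the difference of mean log2(CPM + 1), 1.86 with SCTransform corrected counts, -0.37 with YFP1 alone, 1.34 without the highest cell of each genotype, 0.66 in cells that met the minimum depth, minimum genes and maximum mitochondrial share, 0.79 without wells of over 9000 genes and 0.92 with near-identical wells counted once. In the first 7 of these settings the median of all genes (1.25) was 0.55, 0.92, 1.84, 0.13, 1.86, 0.71 and 1.93. With YFP2 alone the median was 0.88 for the factors and 0.98 for all genes. With TMM factors, 58.3% of genes were higher in Renin-null cells, in place of 69.2%. The 2 factors called higher became 1 (Hoxd10) with TMM factors and without mitochondrial genes and Ren1, and 0 with log2(CPM + 1), where 27.1%, 29.4% and 5.9% of genes were called higher. The 2 called lower became 1 (Hoxd11) as the mean over cells of CPM and with SCTransform, where the log2 ratio of Tbx2 turned to 0.53 and 1.07, and 0 with log2(CPM + 1), where 12.2%, 9.44% and 1.67% of genes were called lower. A larger share of Renin-null cells for 5 factors became 3 in cells that met those limits (61.1% of genes, in place of 74.6%). The cause of these changes was not tested. The number of factors with a positive ratio stayed within 1.5 times of its main count under the alternatives run, but the factors that made it up changed. Over 14 alternatives the sign of the ratio turned in 4 for Ebf1, in 2 each for Tbx2 and Meis1 and in 1 each for Meis2 and Tcf21. For Tbx18, Hoxd10 and Hoxd11 the sign held in all 14. The order by level was compared for another length and another weight of cells, and it differed between YFP1 and YFP2. Depth limits statements on Foxd1, Hoxd10, Hoxd11 and Tcf21, whose counts lie in few wells.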
